A study of Homo sapiens with 64 samples.

Results

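SW948 and DLD1 are established lines from human colorectal cancers, which the study placed in subtypes CCS1 and CCS3. Both were grown as non-adherent spheroids with bFGF and EGF, were labeled with CFSE, a fluorescent dye that thins out with every cell division, and were sorted on day 6 into label-retaining cells (LRCs) and dividing non-LRCs. The comparison here takes the non-LRCs only, 4 replicates of SW948 against 4 of DLD1, which are 8 of the 64 samples in the series. The 24 LRC samples, 16 unsorted DLD1 control samples and 16 non-LRC samples of HT55, HCT15, SW48 and RKO are used only as reference values. The unsorted controls comprise CFSE-labeled and unlabeled cultures, each at day 1 and day 5 in the labels. The labels name no other treatment and no engineered allele for the sorted samples of either line. Each subtype is represented here by a single line, so the tests below measure differences between replicate cultures of 2 lines and say nothing on the spread among lines of a subtype.

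The normal colon epithelium is renewed from stem cells at the crypt base, where Wnt signaling is high and BMP signaling is held down by secreted antagonists. Cells that leave the base go on to become absorptive colonocytes or mucus-secreting goblet cells under transcription factors of the CDX, HNF and FOXA families. Colorectal cancer lines keep parts of these programs to different degrees, and also differ in HOX expression, in interferon-stimulated genes and in imprinted genes.

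The pair was chosen by the correlation of line means over all genes in these data, so that correlation is given as a description with no test. Over 15779 genes with enough counts in the 24 non-LRC samples, Pearson's r of mean log2 CPM (counts scaled to library size, prior count 2) was 0.865 between SW948 and DLD1. This was the highest of the 12 pairs of lines from different subtypes. The next was SW48 with HCT15 at 0.863, and the order of these pairs depended on the measure. By Spearman's rho the value was 0.888 for SW948 with DLD1 and 0.892 for SW48 with HCT15, and over the 1000 most variable genes r was 0.352 and 0.385. Within subtypes, r was 0.868 between SW948 and HT55 and 0.9499 between DLD1 and HCT15, 2 lines derived from the same patient's tumor. Between single samples of SW948 and DLD1, r lay between 0.858 and 0.862 over 16 pairs, against a lowest value of 0.9896 within a line.

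The 4 SW948 samples held 13714485 to 16355750 counts on genes and the 4 DLD1 samples 12777736 to 15078304. Replicates of a line were close, with a biological coefficient of variation of 0.0643 in SW948 and 0.0847 in DLD1, but DLD1 replicates fell into 2 pairs. The mean chi-square per gene was 4.22 between replicates 1 and 2 and 2.60 between replicates 3 and 4, and 9.16 to 15.6 across these pairs. Of 12 colorectal epithelium markers, the lowest in SW948 was CDX1 at 84.4 CPM. In DLD1 CDX1 was near 0 with 4 reads in all, the next lowest was LGALS4 at 8.54 CPM, and EPCAM was at 1375 ± 75.9 CPM in SW948 and 847 ± 56.1 in DLD1 (SD, n = 4). Of 21 matched markers of fibroblasts, immune cells and endothelium, 16 were under 1 CPM on average in both lines. The identity of DLD1 needs a caution. The unsorted control samples are DLD1 by the study's methods, and their titles name no line. They resembled the sorted HCT15 samples (r of 0.961 to 0.994 over 16308 genes) more than the sorted samples labelled DLD1 (r of 0.927 to 0.953). Results for DLD1 therefore refer to the sorted libraries labelled DLD1, and values in the unsorted CFSE-labeled control of day 5 in the labels, called unsorted DLD1 below, are given beside the genes whose direction or size most depends on this choice.

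Of 14023 genes tested, 5651 (40.3%) were higher and 5545 (39.5%) lower in SW948 at an adjusted p under 0.05 (edgeR quasi-likelihood test, two-sided, Benjamini-Hochberg adjusted over all genes tested). A difference of at least 2-fold was called for 2298 (16.4%) that were higher and 2146 (15.3%) that were lower. The samples of the lines did not overlap for 10444 genes (74.5%). These counts describe a pair chosen for its likeness over the same genes, and nothing further is read from them. They set the level against which each gene group below has to be read: a called gene is the rule between 2 cell lines, so the size of a difference, its direction within a group and the genes themselves are given rather than the call alone. The largest differences were those of genes near 0 in the other line. A total of 551 genes were at least 16-fold higher and 379 at least 16-fold lower in SW948.

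**Figure D1:**
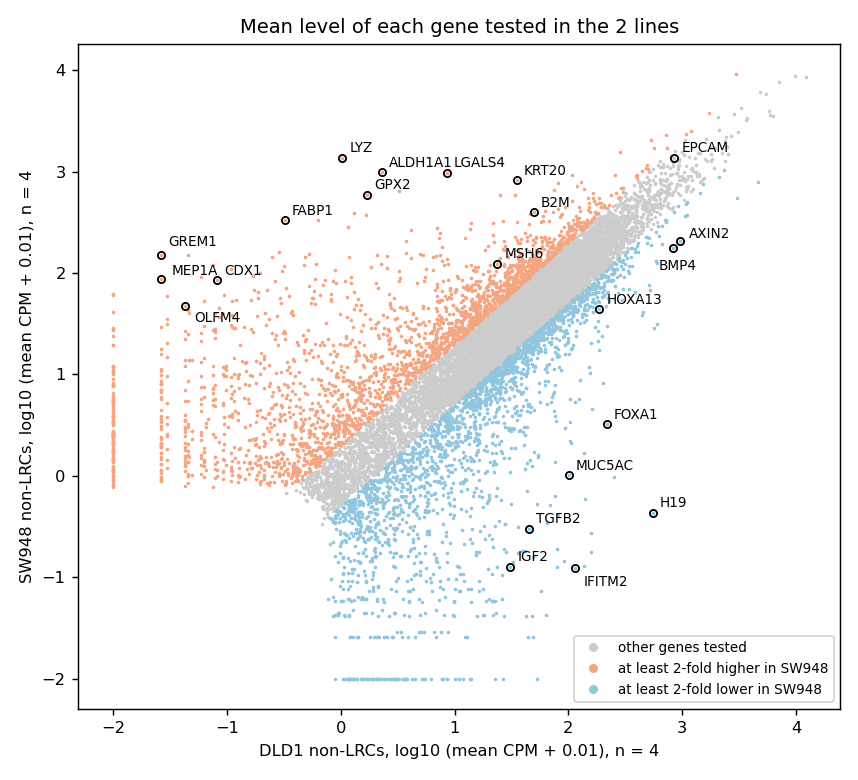
Mean CPM of each of the 14023 genes tested in DLD1 (x axis) and SW948 (y axis) non-LRCs, both on a log10 scale with 0.01 added, n = 4 a line. Most genes lie near the diagonal, while LYZ, ALDH1A1, FABP1 and GREM1 stand far above it and H19, IFITM2 and MUC5AC far below.

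Genes of the absorptive colonocyte were much higher in SW948. Of 24 listed markers 12 passed the filter on low counts, and of these 11 were higher and 1 was lower in SW948. The difference was at least 2-fold for 10 of those higher (83.3% against 16.4% of all genes). Over the 12 markers the median log2 fold change was 4.31, against -0.000323 over all genes tested. The filter asked for 10 counts in 4 of the 8 samples, so a marker near 0 in DLD1 could pass through SW948 alone. A stricter filter, 10 counts in each of the 8 samples, left 6 markers higher and 1 lower, and the median fell to 3.10. FABP1, the liver-type fatty acid-binding protein of the small and large bowel, was at 380.5, 339.8, 320.4 and 281 CPM in the 4 SW948 samples and at 0.198, 0.131, 0.131 and 0.786 CPM in the 4 DLD1 samples. Every SW948 sample was far above every DLD1 sample (log2 fold change 10.11 ± 0.20, adjusted p = 7.9e-16). LGALS4, a galectin of the brush border, was at 1021, 1024, 907 and 949 CPM in SW948 and 8.53, 9.16, 6.82 and 9.66 CPM in DLD1, a 114-fold difference (log2 fold change 6.84 ± 0.10, adjusted p = 5.1e-17). KRT20, the keratin of mature colonocytes, was at 825 ± 41.96 CPM in SW948 and 35.1 ± 2.38 in DLD1 (log2 fold change 4.56 ± 0.07, adjusted p = 1.0e-16), and only 0.992 ± 0.5104 CPM in unsorted DLD1. MEP1A, a brush border metalloprotease, was at 87.97 ± 4.39 CPM in SW948 and had a single read over the 4 DLD1 samples (ratio 5144, exact 95% counting interval 923 to 203222).

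The microvillus genes went the same way to different degrees. CDHR5, a protocadherin that links microvilli, was 142-fold higher in SW948 (30.4 against 0.2097 CPM), DPP4, a brush border peptidase, 16.8-fold (132 against 7.81 CPM), and VIL1, the actin bundler villin, 8.601-fold (929 against 108 CPM). PHGR1 was at 64.7 ± 8.35 CPM in SW948 and 10.01 ± 1.32 in DLD1, but at 0.0765 ± 0.0555 in unsorted DLD1. The member that was lower in SW948 was SLC26A2, a sulfate transporter, at 13.9 ± 0.907 against 21.7 ± 1.68 CPM (log2 fold change -0.64 ± 0.09, adjusted p = 6.0e-06). CA2, carbonic anhydrase 2, was called barely higher and its samples overlapped (9.42 to 14.7 CPM in SW948 and 8.09 to 10.7 in DLD1, adjusted p = 0.047), and it was higher in unsorted DLD1 (23.7 ± 11.5 CPM). Of the 12 markers that did not pass the filter, 5 had no read in any of the 8 samples.

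The FABP1 promoter is shown because this gene had the largest ratio of the list among genes with reads in each DLD1 sample. It is read 5′ to 3′ from 250 bases before to 50 bases after the RefSeq start (GRCh38.p14, chr2:88128013-88128312, minus strand). Capitals mark a CDX site (TTTATGG, here on the other strand) and a TATA box (TATAAA), searched on both strands and not overlapping each other.
FABP1: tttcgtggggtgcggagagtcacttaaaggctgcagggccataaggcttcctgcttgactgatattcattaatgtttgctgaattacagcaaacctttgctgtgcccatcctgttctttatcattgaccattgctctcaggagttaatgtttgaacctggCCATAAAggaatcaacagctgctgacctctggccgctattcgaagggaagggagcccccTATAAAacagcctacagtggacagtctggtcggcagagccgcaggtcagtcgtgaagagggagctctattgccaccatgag
Over the 27305 promoters of this length, 2.66% held the CDX letters and 11.95% the TATA letters. Of the 7 tested list members with a promoter sequence, FABP1 alone held the CDX and TATA letters. None held the HNF4 letters CAAAGTCCA, which were in 0.359% of all promoters. A match describes the letters only.

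Transcription factors of the intestine were mostly higher in SW948, with FOXA1 as the main exception. Of 20 tested members of the list, 15 were higher and 4 lower, 10 and 4 of them at least 2-fold (70.0% against 31.7% of all genes), and the median log2 fold change was 1.06. This median was 0.47 over members with at least 10 counts in every sample, 0.64 with no filter on low counts, 0.70 in LRCs and, against unsorted DLD1, 2.001. CDX1, a homeobox factor of the colon, was at 84.1, 94.1, 74.6 and 84.9 CPM in SW948 and at 0, 0.131, 0 and 0.157 CPM in DLD1, near 0 in each DLD1 sample. Its paralog CDX2 was almost level (302 ± 24.4 against 247 ± 28.01 CPM, log2 fold change 0.29 ± 0.08, adjusted p = 0.0034), and its samples overlapped. HNF4A, a nuclear receptor of the gut and liver, was 2.83-fold higher in SW948 (204 ± 17.9 against 71.95 ± 6.22 CPM). HNF4G was 5.09-fold higher in SW948 (35.4 against 6.97 CPM) and PPARG, a nuclear receptor for fatty acids, 3.95-fold (229 against 57.8 CPM).

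FOXA1 was lower and FOXA2 and FOXA3 were higher in SW948, all pioneer factors that open chromatin in gut endoderm. FOXA1 was at 2.83, 3.36, 2.75 and 3.96 CPM in SW948 and 210.3, 185, 247 and 226 CPM in DLD1, which is 67.2-fold lower in SW948 (log2 fold change -6.07 ± 0.12, adjusted p = 7.5e-16). In unsorted DLD1 FOXA1 was at 42.4 ± 0.714 CPM and in HCT15 at 40.2 ± 3.197, still above SW948 but by less. FOXA2 was at 88.3, 91.7, 78.7 and 81.8 CPM in SW948 and 7.73, 12.7, 7.14 and 7.23 CPM in DLD1, 9.72-fold higher in SW948, and FOXA3 was 8.16-fold higher (33.7 against 4.14 CPM). ISX, a homeobox factor that controls vitamin A uptake, was lower in SW948 (5.29 against 17.9 CPM), but it was at 0.0289 CPM in unsorted DLD1, so that its direction turned with the choice of DLD1 samples. GATA6 did not pass the test (66.5 ± 2.17 against 70.3 ± 3.95 CPM, adjusted p = 0.21), but against unsorted DLD1 (33.6 ± 2.79 CPM) it was higher in SW948 (log2 fold change 1.02, adjusted p = 6.7e-08).

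**Figure D2:**
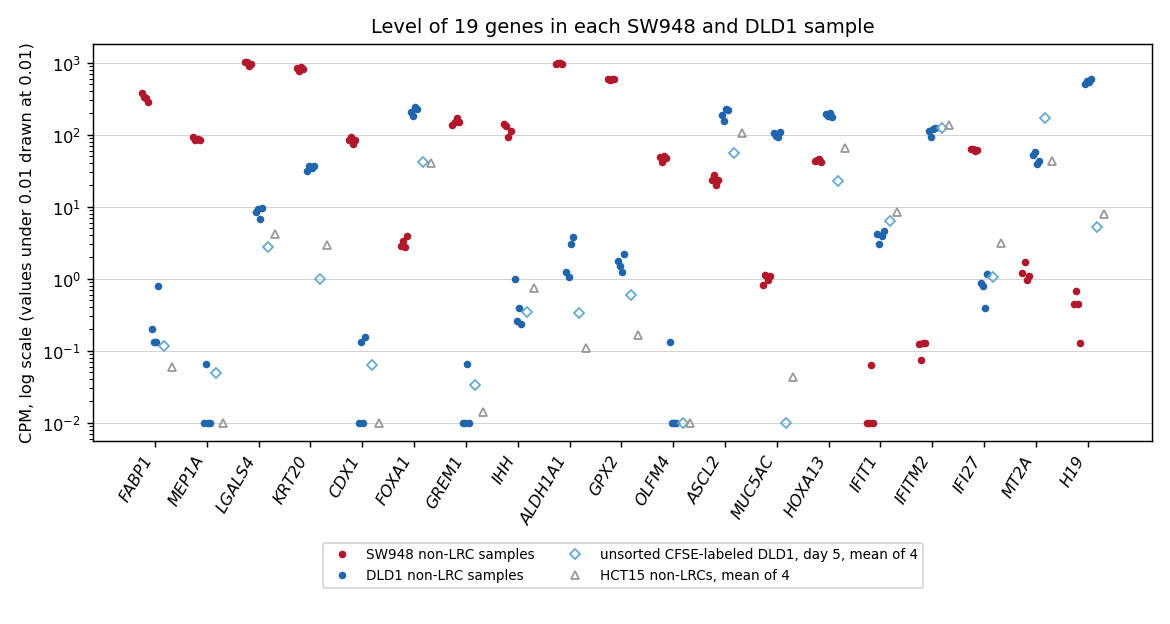
CPM on a log scale of 19 genes in each of the 4 SW948 and 4 DLD1 non-LRC samples, with the means of unsorted CFSE-labeled DLD1 and of HCT15 non-LRCs beside them, and values under 0.01 drawn at 0.01. The SW948 and DLD1 samples of every gene drawn are apart, and for H19, MUC5AC, KRT20 and FOXA1 the unsorted DLD1 mean lies away from the sorted DLD1 samples and close to HCT15.

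Genes that detoxify drugs and oxidants were more often higher than lower in SW948. Of 27 tested members, 16 were higher and 8 lower, 15 and 5 of them at least 2-fold (74.1% against 31.7% of all genes), with a median log2 fold change of 1.17, which was 0.11 against unsorted DLD1. GPX2, the glutathione peroxidase of the gut epithelium, was at 592, 575, 602 and 599 CPM in SW948 and 1.78, 1.51, 1.25 and 2.1997 CPM in DLD1, 354-fold apart (log2 fold change 8.47 ± 0.10, adjusted p = 2.1e-17). ALDH1A1, which oxidizes retinal to retinoic acid, was at 965, 982, 995 and 974 CPM in SW948 and 1.26, 1.05, 3.08 and 3.77 CPM in DLD1, where replicates 3 and 4 were above replicates 1 and 2. CYP3A5, a drug-metabolizing cytochrome P450, was at 55.2 ± 12.3 against 1.398 ± 0.128 CPM (log2 fold change 5.29 ± 0.20, adjusted p = 1.2e-12). NR1I2, the xenobiotic receptor PXR that induces such enzymes, was at 59.6 ± 3.71 CPM in SW948 and had a single read over the 4 DLD1 samples (ratio 3492, exact 95% counting interval 626 to 137958). CYP2B6, a further P450, was at 150.5, 155, 151 and 144 CPM in SW948 and had 2 reads in DLD1 (ratio 4378, exact 95% counting interval 1212 to 36158).

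The aldo-keto reductases AKR1C1, AKR1C2, AKR1C3 and AKR1B10 were 98.99-, 68.7-, 8.44- and 99.1-fold higher in SW948, but the AKR1C genes are near-identical copies whose reads can be misassigned. The core NRF2 targets were less apart: NQO1 was 2.36-fold and GCLC 2.23-fold higher in SW948, and TXNRD1 and GCLM did not pass the test (adjusted p = 0.13 and 0.24). In unsorted DLD1, NQO1 was at 2608 ± 358 CPM, above SW948. GSTM3, a glutathione transferase, went strongly the other way at 4.78, 4.26, 4.28 and 5.05 CPM in SW948 and 167, 166, 156 and 159 CPM in DLD1 (log2 fold change -5.13 ± 0.07, adjusted p = 5.1e-17), and CYP1B1 was 4.82-fold lower in SW948 (19.4 against 93.8 CPM). UGT1A10, a glucuronosyltransferase, was at 61.4 ± 3.48 CPM in SW948 with no read in DLD1, at least 297-fold higher by a floor of 3 counts per library, but the UGT1A genes share exons and its own level is uncertain.

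CEACAM adhesion genes were higher in SW948, while other junction and epithelial genes were mixed. Among the CEACAM family, 5 of 11 matched members were tested and 4 were higher, all at least 2-fold (80% against 16.4% of all genes), with a median log2 fold change of 4.29 (7.43 against unsorted DLD1). CEACAM1 was at 271 ± 17.9 CPM in SW948 and 13.8 ± 3.65 in DLD1, and CEACAM5, the carcinoembryonic antigen, at 182 ± 14.6 and 7.71 ± 2.397. The CEACAM genes share long stretches of sequence, which makes the split of reads between them uncertain. Of 18 tested tight junction genes, 12 were higher and 2 lower (77.8% called against 79.8% of all genes), which is at the background, 5 of them at least 2-fold higher and none at least 2-fold lower (27.8% against 31.7%), and the median log2 fold change was 0.62. CLDN1 was at 48.1, 43.7, 55.3 and 48.1 CPM in SW948 and 2.45, 2.29, 3.15 and 2.91 CPM in DLD1, 18.1-fold apart, and CLDN3 was 9.09-fold higher (201 against 22.1 CPM). The scaffold TJP1 was lower in SW948 (117 ± 3.19 against 226 ± 10.8 CPM, log2 fold change -0.95 ± 0.05, adjusted p = 1.6e-10). CLDN2, a pore-forming claudin, was 5.98-fold higher in SW948 than in sorted DLD1 (248 against 41.5 CPM), but unsorted DLD1 was at 274 ± 12.4 CPM. Of 16 tested epithelial identity genes, 6 were higher and 6 lower (31.2% at least 2-fold, at the background of 31.7%). The cadherin CDH1 was at 644 ± 26.4 against 1081 ± 106 CPM and the splicing factor ESRP1 was 11.02-fold higher in SW948 (239 against 21.6 CPM).

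Secretory genes split between the lines. Of 17 tested goblet and secretory genes, 8 were higher and 7 lower in SW948, 8 and 5 of them at least 2-fold (76.5% against 31.7% of all genes). MUC2, the main gel-forming mucin of goblet cells, was at 14.2, 14.4, 8.44 and 10.4 CPM in SW948 and 0.132, 0.458, 0.459 and 0.314 CPM in DLD1. With so few reads in DLD1, it could pass the filter on low counts through SW948 alone. MUC5AC, the gel-forming mucin of the stomach surface, was at 0.818, 1.12, 0.959 and 1.09 CPM in SW948 and 104, 96.9, 92.99 and 109 CPM in DLD1, 101-fold lower in SW948 (log2 fold change -6.66 ± 0.11, adjusted p = 1.3e-16). MUC5AC was listed at 0 in every unsorted DLD1 sample and was at 0.0437 CPM in HCT15, so this difference held for the sorted DLD1 samples only among the DLD1 and HCT15 groups compared here. TFF3, a goblet cell peptide, was 7.76-fold higher in SW948 (209 ± 27.97 against 26.9 ± 2.87 CPM), while AGR2, a disulfide isomerase of secretory cells, did not pass the test (598 ± 33.2 against 623 ± 19.7 CPM, adjusted p = 0.36). Against unsorted DLD1, in which AGR2 was at 48.1 ± 2.95 CPM, it was higher in SW948 (log2 fold change 3.67, adjusted p = 8.4e-13). LYZ, lysozyme, which Paneth cells and myeloid cells make, was among the largest differences of all: 1407, 1338, 1363 and 1352 CPM in SW948 and 0.529, 0.982, 0.524 and 2.04 CPM in DLD1 (log2 fold change 10.43 ± 0.17, adjusted p = 1.3e-16). Of 8 matched immune markers, LYZ among them, 6 were under 1 CPM in both lines. The pan-leukocyte marker PTPRC was 1 of these 6, at 0 CPM in SW948 and 0.0164 in DLD1. The 2 tested were both higher in SW948, with log2 fold changes of 10.43 for LYZ and 3.87 for the other. Of 15 enteroendocrine genes only SCG5, a secretory granule chaperone, was tested, and it was lower in SW948 (8.001 against 38.5 CPM).

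Wnt target and crypt base genes did not move together. Of 23 tested, 8 were higher and 12 lower in SW948, 5 and 10 of them at least 2-fold (65.2% against 31.7% of all genes), and the median log2 fold change was -0.53. Several inhibitors of the pathway were lower in SW948 and others were not: AXIN2 was at 184, 214, 203 and 221 CPM in SW948 and 847, 806, 1083 and 1065 CPM in DLD1 (log2 fold change -2.21 ± 0.10, adjusted p = 8.0e-12), NKD1 was 2.44-fold lower, RNF43, a ligase that removes Wnt receptors, was 1.52-fold higher, and APCDD1, a Wnt-binding membrane protein, was 25.1-fold lower (0.6905 against 17.2 CPM). ASCL2, the bHLH factor of crypt base stem cells, was at 23.6, 27.6, 20.3 and 23.8 CPM in SW948 and 187, 156, 226 and 221 CPM in DLD1, 8.29-fold lower (log2 fold change -3.05 ± 0.12, adjusted p = 1.7e-12). SOX9 was 2.15-fold lower (332 against 713 CPM). OLFM4, a secreted marker of the human crypt base, went the other way and was at 49.5, 41.3, 50.5 and 48.01 CPM in SW948 against 2 reads over all DLD1 samples (ratio 1389, exact 95% counting interval 384 to 11471). LGR5, the R-spondin receptor that marks crypt stem cells, was close in the sorted samples, at 34.4, 34.4, 34.9 and 32.3 CPM in SW948 and 46.1, 36.8, 60.6 and 53.6 CPM in DLD1 (log2 fold change -0.53 ± 0.11, adjusted p = 4.8e-04).

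The nuclear factors at the end of the pathway were exchanged, with TCF7 3.33-fold higher in SW948 (133 against 40.04 CPM) and LEF1 2.55-fold lower (40.3 against 103 CPM). CD44 and MYC, both long known as Wnt targets in the colon, were 2.27-fold and 1.57-fold higher in SW948. The direction of the list as a whole rested on which DLD1 samples were used: against unsorted DLD1 its median log2 fold change was 0.52, and in LRCs it was -0.06. It was -0.29 with DLD1 replicates 1 and 2 alone. LGR5 was at 0.443 ± 0.271 CPM in unsorted DLD1 and 0.129 ± 0.0979 in HCT15, far below the sorted DLD1 samples, and CD44 was at 46.97 ± 11.2 CPM in unsorted DLD1 against 395 ± 33.6 in sorted DLD1.

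Genes of the BMP and TGFβ pathways included some of the widest differences between the lines. GREM1, a secreted antagonist that binds BMP ligands and is made by stromal cells around the normal crypt base, was at 138, 149, 170.0 and 151 CPM in SW948. DLD1 had a single GREM1 read over its 4 samples (ratio 8867, exact 95% counting interval 1591 to 350248), and the level was at most 0.717 CPM in the 4 other lines. GREM1 lies at chr15:33010205-33037307 (GRCh37). Of 8 matched fibroblast markers, 6 were under 1 CPM in both lines, and their summed level was 9.57 to 12.3 CPM in the SW948 samples and 5.97 to 8.33 in the DLD1 samples. DCN and LUM, matrix proteins of fibroblasts, were at 0.0637 and 0.396 CPM in SW948. Of the 2 fibroblast markers tested, COL1A1, a collagen chain, was higher in SW948 like GREM1 (8.97 against 0.623 CPM), and the other was lower (log2 fold change -2.68). The ligand BMP7 was at 113, 112, 93.4 and 102 CPM in SW948 and 0.397, 0.196, 0.262 and 0.314 CPM in DLD1 (log2 fold change 8.46 ± 0.14, adjusted p = 1.7e-16). The ligand BMP4 was lower in SW948, at 198, 179.8, 153 and 174 CPM against 872, 881, 783 and 797 CPM (log2 fold change -2.24 ± 0.08, adjusted p = 4.4e-13), while BMP2 did not pass the test (18.2 against 19.9 CPM, adjusted p = 0.32). BMP2 was at 0.687 ± 0.0705 CPM in unsorted DLD1, against which it was higher in SW948 (log2 fold change 4.75, adjusted p = 4.6e-11).

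Downstream of the ligands, 3 of the 4 ID genes, direct BMP targets, were lower in SW948. ID1 was at 61.9, 85.01, 63.2 and 67.4 CPM in SW948 and 309.7, 301, 311 and 279 CPM in DLD1 (log2 fold change -2.12 ± 0.09, adjusted p = 3.7e-12), ID2 was 3.92-fold lower (57.005 against 223 CPM) and ID3 3.46-fold lower (74.5 against 258 CPM). The inhibitory SMAD7 was at 7.74, 7.78, 8.06 and 7.74 CPM in SW948 and 76.1, 73.7, 76.9 and 76.8 CPM in DLD1, 9.68-fold lower (log2 fold change -3.27 ± 0.07, adjusted p = 8.7e-16), and the decoy receptor BAMBI was 10.7-fold lower (4.27 against 45.6 CPM). ID4 was low in both lines and higher in SW948 (1.39 against 0.0524 CPM). ID1 and ID3 were nearer to SW948 in unsorted DLD1, at 114 ± 41.7 and 87.3 ± 26.1 CPM. TGFB2, a TGFβ ligand, was at 0.189, 0.0748, 0.576 and 0.3196 CPM in SW948 and 42.6, 55.4, 43.8 and 38.2 CPM in DLD1 (log2 fold change -7.21 ± 0.23, adjusted p = 1.7e-13), whereas the type II receptor TGFBR2 was 2.295-fold higher in SW948 (472 against 205 CPM). Over the list, 5 of 29 genes were higher and 20 lower, 5 and 12 of them at least 2-fold (58.6% against 31.7% of all genes), with a median log2 fold change of -0.65, which was -0.36 against unsorted DLD1. SMAD4, the shared signal transducer, was 1.57-fold lower (65.5 ± 4.12 against 103 ± 3.75 CPM).

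Of 10 tested Hedgehog genes, 3 were higher and 6 lower in SW948, 3 and 4 of them at least 2-fold (70% against 31.7% of all genes). IHH, the ligand of the differentiated colon epithelium, was at 141, 134, 94.1 and 112 CPM in SW948 and 0.991, 0.262, 0.393 and 0.236 CPM in DLD1 (log2 fold change 7.95 ± 0.22, adjusted p = 4.3e-14), and SHH was 5.02-fold higher (8.83 against 1.75 CPM). The receptor PTCH1 was 1.37-fold lower (58.6 ± 3.73 against 80.6 ± 10.4 CPM), and the low-level GLI2 and BOC were at 0.0504 and 0.0721 CPM in SW948 against 1.17 and 2.103 in DLD1. IHH, GLI2 and BOC, each near 0 in a line, could pass the filter on low counts through the other line alone. SHH and PTCH1 were at 7.49 ± 0.566 and 49.3 ± 10.5 CPM in unsorted DLD1, and neither passed the test against it (adjusted p = 0.11 and 0.064).

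**Figure D3:**
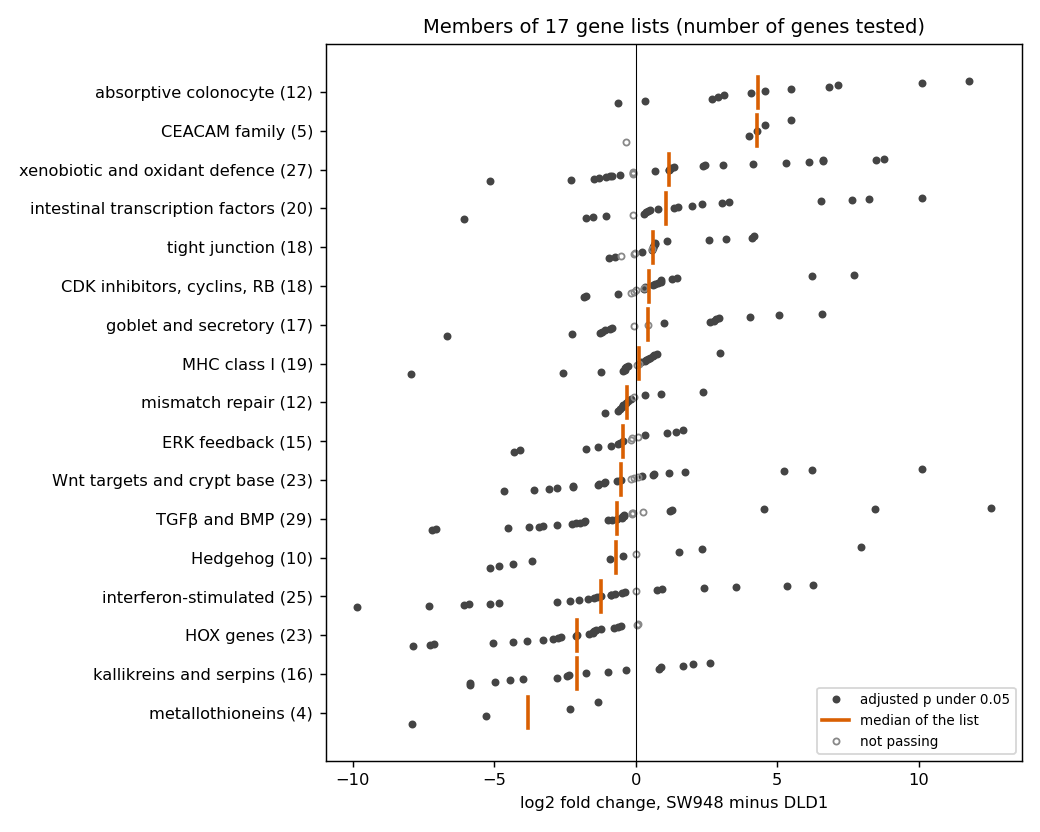
Log2 fold change (SW948 minus DLD1, x axis) of every tested member of 17 gene lists, one row a list, with filled points for an adjusted p under 0.05, open points for members that did not pass, and a bar at the median. The colonocyte, CEACAM, xenobiotic and transcription factor lists have medians above 1, and the HOX, kallikrein and serpin, interferon and metallothionein lists medians below -1.

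HOX genes, which encode homeobox factors that hold position along the body axis, were lower in SW948 without a called exception. Of 38 matched genes 23 were tested, and 21 were lower, 18 of them at least 2-fold (78.3% against 15.3% of all genes). None was higher, and the median log2 fold change was -2.06. Part of this share can come from the filter on low counts, which a gene near 0 in SW948 could pass through DLD1 alone. When all 8 samples had to reach 10 counts, 14 HOX genes remained lower and none higher, and the median was -1.51. All 11 genes of the HOXA cluster were at least 2-fold lower. HOXA13, the distal end of the cluster, was at 43.4, 44.3, 45.8 and 41.5 CPM in SW948 and 192, 179, 202 and 175 CPM in DLD1 (log2 fold change -2.10 ± 0.06, adjusted p = 7.2e-14), and HOXA5 at 1.76, 1.72, 1.79 and 2.68 CPM and 41.2, 37.4, 43.6 and 40.9 CPM (log2 fold change -4.35 ± 0.12, adjusted p = 4.2e-14). HOTTIP, a long noncoding RNA transcribed from the HOXA13 end, was at 5.16, 4.64, 5.44 and 6.26 CPM in SW948 and 107, 122, 112 and 117 CPM in DLD1 (log2 fold change -4.41 ± 0.09, adjusted p = 6.7e-16), and HOXA10-AS was at 0.908 against 12.7 CPM. Strand-specific counting was not stated, so reads of HOXA10-AS and of genes on the other strand cannot be told apart. In the HOXB cluster 6 of 8 tested genes were lower, 3 at least 2-fold, while HOXB4 and HOXB5 did not pass (adjusted p = 0.79 and 0.39).

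Against unsorted DLD1, 4 HOX genes were called higher in SW948 and the median was -0.50. Over all genes tested in that comparison, 5513 were called higher and 5509 lower in SW948. In unsorted DLD1 HOXA13 was at 23.05 ± 5.097 CPM, HOXA10 at 23.05 ± 1.98 and HOXA3 at 2.44 ± 0.764, all below SW948 (43.8, 31.9 and 13.8 CPM). For HOXA13, HCT15 lay between SW948 and sorted DLD1 (65.3 ± 38.8 CPM). HOXA5, HOXA6 and HOXA7 were lower in SW948 than in unsorted DLD1 as well, at 1.99, 0.597 and 2.9999 CPM in SW948 and 4.62, 2.23 and 18.2 CPM in unsorted DLD1.

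Interferon-stimulated genes were mostly lower in SW948, with a few far higher. Of 25 tested members, 6 were higher and 18 lower, 4 and 13 of them at least 2-fold (68.0% against 31.7% of all genes), and the median log2 fold change was -1.24, or -0.75 over members with at least 10 counts in every sample. IFIT1, which binds foreign RNA ends, was at 0, 0, 0.0639 and 0 CPM in SW948 and 4.16, 3.01, 3.93 and 4.56 CPM in DLD1. IFIT2 and IFIT3 were also near 0 in SW948 (0.115 and 0.0477 CPM) and at 7.36 and 3.94 CPM in DLD1. ISG15, a ubiquitin-like modifier, was at 4.22, 4.11, 3.26 and 4.03 CPM in SW948 and 26.5, 30.4, 26.4 and 23.3 CPM in DLD1 (log2 fold change -2.77 ± 0.12, adjusted p = 5.6e-12), and SAMD9 was 35.5-fold lower (0.531 against 19.1 CPM). IFI27, a small mitochondrial protein, went the other way at 64.3, 62.96, 59.2 and 60.6 CPM in SW948 and 0.859, 0.785, 0.393 and 1.18 CPM in DLD1 (log2 fold change 6.28 ± 0.14, adjusted p = 2.2e-15), and MX1 did not pass the test (adjusted p = 0.996).

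The neighboring IFITM genes, which block virus entry, were split. IFITM2 was at 0.126, 0.0748, 0.128 and 0.128 CPM in SW948 and 113, 93.3, 121 and 126 CPM in DLD1 (log2 fold change -9.83 ± 0.18, adjusted p = 5.6e-16), IFITM3 was 2.36-fold lower in SW948 (75.6 against 178 CPM), and IFITM1 was 40.5-fold higher (39.2 against 0.969 CPM). In unsorted DLD1 IFITM1 was at 13.5 ± 2.75 CPM. These genes resemble each other in sequence, so reads can be lost or misassigned between them. The signaling components differed less: STAT2 was 1.68-fold and IRF9 1.29-fold lower in SW948, and IRF7 3.24-fold lower (7.14 against 23.1 CPM). IRF9 did not pass against unsorted DLD1 (9.23 ± 2.65 CPM, adjusted p = 0.17).

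The promoters of 4 of these genes are shown to set the interferon-stimulated response element beside the direction of each gene. The element was searched as GAAA, any 2 bases and GAAACT, on both strands in windows of 250 bases before to 50 after the RefSeq start (GRCh38.p14), and capitals mark it. IFIT1 lies at chr10:89392373-89392672, IFIT3 at chr10:89327747-89328046, IFI27 at chr14:94110486-94110785 and IFITM1 at chr11:313790-314089, all on the plus strand.
IFIT1: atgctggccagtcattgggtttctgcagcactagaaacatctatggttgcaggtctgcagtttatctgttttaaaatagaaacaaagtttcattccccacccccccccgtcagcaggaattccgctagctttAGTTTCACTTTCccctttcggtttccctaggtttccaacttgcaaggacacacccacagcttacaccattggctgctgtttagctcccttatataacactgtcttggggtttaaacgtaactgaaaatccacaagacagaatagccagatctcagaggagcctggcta
IFIT3: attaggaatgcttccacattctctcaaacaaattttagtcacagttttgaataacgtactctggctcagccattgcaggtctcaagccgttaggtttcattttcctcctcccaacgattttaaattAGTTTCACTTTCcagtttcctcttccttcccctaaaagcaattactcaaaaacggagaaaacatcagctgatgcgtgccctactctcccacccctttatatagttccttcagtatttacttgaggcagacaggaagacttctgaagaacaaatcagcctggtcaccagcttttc
IFI27: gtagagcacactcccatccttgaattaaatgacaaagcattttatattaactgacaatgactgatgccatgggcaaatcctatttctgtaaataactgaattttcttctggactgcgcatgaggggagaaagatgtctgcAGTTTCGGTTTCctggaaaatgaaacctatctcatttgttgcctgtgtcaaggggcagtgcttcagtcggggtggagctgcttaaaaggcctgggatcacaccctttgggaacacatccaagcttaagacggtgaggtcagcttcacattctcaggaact
IFITM1: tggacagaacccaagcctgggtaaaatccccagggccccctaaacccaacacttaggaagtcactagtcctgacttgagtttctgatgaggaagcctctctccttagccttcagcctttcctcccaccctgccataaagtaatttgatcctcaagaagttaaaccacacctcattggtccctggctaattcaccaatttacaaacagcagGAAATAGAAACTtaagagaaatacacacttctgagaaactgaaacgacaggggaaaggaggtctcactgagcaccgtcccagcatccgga
IFIT1 and IFIT3, lower in SW948, hold the element from 118 and 124 bases before the start, and IFI27 and IFITM1, higher in SW948, from 110 and 40 bases before it. Of 17 tested list members with a promoter sequence, 8 held the element, against 0.271% of all 27305 promoters. Of these 8, IFI6, IFIT1, IFIT3, IFITM3 and ISG15 were lower in SW948, IFI27 and IFITM1 higher, and MX1 did not pass.

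Antigen presentation genes of MHC class I were called in both directions, with 9 of 19 higher and 8 lower in SW948 and 1 and 3 of them at least 2-fold (21.1% against 31.7% of all genes). B2M, the invariant light chain, was at 388, 364, 442 and 385 CPM in SW948 and 54.7, 51.2, 46.8 and 45.7 CPM in DLD1, 7.95-fold higher (log2 fold change 2.99 ± 0.08, adjusted p = 1.4e-14). HLA-G was at 0.0951 against 26.1 ± 3.27 CPM, and the peptide trimmer ERAP2 was 5.91-fold lower in SW948 (29.2 ± 1.61 against 173 ± 6.602 CPM). HLA genes are polymorphic and alike, which limits how well their reads align to a single reference. All 4 tested metallothioneins, cysteine-rich metal-binding proteins, were at least 2-fold lower in SW948 (100% against 15.3% of all genes), with a median log2 fold change of -3.81, or -2.32 with no filter on low counts. MT2A was at 1.196, 1.72, 0.959 and 1.09 CPM in SW948 and 51.7, 57.2, 39.1 and 43.3 CPM in DLD1 (log2 fold change -5.28 ± 0.17, adjusted p = 2.3e-13), and MT1E at 0.1702 against 41.4 ± 3.79 CPM, with the caution that these short genes are near copies of each other. Of 16 tested kallikreins and serpins, 5 were higher and 11 lower, 3 and 9 of them at least 2-fold (75% against 31.7% of all genes). Their median log2 fold change was -2.07, but -0.68 over members with at least 10 counts in every sample and -1.02 against unsorted DLD1. The secreted protease KLK10 was at 5.73, 4.64, 5.69 and 6.904 CPM in SW948 and 112, 135, 119 and 133 CPM in DLD1 (log2 fold change -4.43 ± 0.10, adjusted p = 4.2e-15), KLK6 was 31.3-fold lower, and SERPINB6, a protease inhibitor, 6.19-fold higher (368 against 59.5 CPM).

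Imprinted genes, which are expressed from a single parental copy, included the long noncoding RNA with the widest gap toward DLD1. H19 was at 0.441, 0.673, 0.448 and 0.128 CPM in SW948 and 499, 559, 543 and 590.0 CPM in DLD1 (log2 fold change -10.34 ± 0.14, adjusted p = 4.9e-17), and its neighbor IGF2, a growth factor, was at 0.189, 0.1495, 0.0639 and 0.0639 CPM and 30.7, 37.4, 25.2 and 30.2 CPM (log2 fold change -7.96 ± 0.24, adjusted p = 1.1e-13). H19 lies at chr11:2016396-2025782 and IGF2 at chr11:2150342-2179621 (GRCh37). Both were low in unsorted DLD1, at 5.29 ± 0.383 and 0.742 ± 0.193 CPM, and in HCT15, at 7.82 ± 2.22 and 2.47 ± 0.494 CPM, far below sorted DLD1, though still above SW948. PLAGL1, an imprinted zinc finger gene, was at 0.563 ± 0.168 CPM in SW948 and 25.7 ± 2.65 in DLD1, and here unsorted DLD1 was like sorted DLD1 (26.6 ± 2.35 CPM). ZFP57, a zinc finger protein that maintains imprints in the early embryo, was at 0.0344 CPM in SW948, 23.05 ± 1.11 in DLD1 and 33.5 ± 2.47 in unsorted DLD1. SGCE, an imprinted sarcoglycan gene, was near 0 in DLD1 (8.595 ± 0.754 against 0.03602 CPM). SNHG14, a long transcript of the imprinted region of chromosome 15, was at 19.7 ± 2.63 CPM in SW948 with no read in DLD1, though it overlaps other genes there. Of 9 tested imprinted genes, 2 were higher and 4 lower in SW948 (66.7% called against 79.8% of all genes), and MEST, PHLDA2 and L3MBTL1 did not pass.

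DNA mismatch repair genes were mostly within 2-fold. Of 12 tested, 3 were higher and 8 lower (91.7% called against 79.8% of all genes). A single gene in each direction was at least 2-fold apart (16.7% against 31.7%). MSH6, a mismatch recognition protein, was at 118, 128, 127 and 119 CPM in SW948 and 25.2, 22.1, 25.1 and 22.1 CPM in DLD1, 5.197-fold higher (log2 fold change 2.38 ± 0.07, adjusted p = 3.2e-14). It was lower still in unsorted DLD1 (9.12 ± 3.11 CPM) and HCT15 (11.5 ± 2.76 CPM) and at 76.8 to 129 CPM in the lines HT55, SW48 and RKO. MSH3 was 2.14-fold lower in SW948.

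Among CDK inhibitors, cyclins and RB family genes, 11 of 18 were higher and 3 lower in SW948, 4 and 2 of them at least 2-fold, which is at the background (33.3% against 31.7% of all genes). CDKN2A, which encodes the inhibitors p16 and p14ARF, was at 37.6, 41.1, 33.1 and 38.995 CPM in SW948 and 0, 0.196, 0.262 and 0.236 CPM in DLD1 (log2 fold change 7.71 ± 0.21, adjusted p = 3.8e-14), and it was at most 2.11 CPM in the 4 other lines. The D-type cyclins were exchanged: CCND1 was 3.41-fold lower in SW948 (198, 205, 188 and 184 against 709.8, 710.1, 621 and 604 CPM) and CCND2 75.3-fold higher (91.01 against 1.21 CPM). Feedback genes of ERK signaling were split, with 4 of 15 higher and 8 lower (80% called against 79.8% of all genes). EGR1, an immediate early gene, was at 39.3, 39.2, 19.1 and 16.1 CPM in SW948 and 827, 535, 501 and 385 CPM in DLD1 (log2 fold change -4.31 ± 0.28, adjusted p = 8.7e-10), with DLD1 replicates far apart, and was at 155 ± 39.6 CPM in unsorted DLD1. ETV4 and SPRY2 were 3.15-fold and 2.66-fold higher in SW948. EGFR and ERBB3 did not pass (adjusted p = 0.75 and 0.23), though ERBB3 was higher in SW948 than in unsorted DLD1 (649 against 219 ± 55.1 CPM, adjusted p = 4.7e-07), while the ligand EREG was 4.48-fold lower (130.4 against 585 CPM), and over 9 tested EGF family genes 1 was higher and 5 lower (66.7% called).

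The other lists are given by their counts. Of 11 tested mesenchymal genes 4 were higher and 7 lower, and VIM, the filament protein of mesenchymal cells, had no read in SW948 and was at 2.39 ± 0.545 CPM in DLD1. Of 8 tested keratins 3 were higher and 4 lower, of 15 Notch genes 6 and 5, of 21 integrins and laminins 6 and 10, and of 16 S100 and annexin genes 9 and 3, with 100%, 87.5%, 73.3%, 76.2% and 75% called in these lists against 79.8% of all genes. Cancer-testis genes were nearly silent in both lines, with 21 of 31 matched genes at 0 in all 8 samples. Of 3 tested, 2 were higher and none lower (66.7% called against 79.8% of all genes).

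The protein-coding genes with the widest differences at 20 CPM or more in the higher line included genes outside these groups. Among the 15 highest in SW948, H2AJ, a histone H2A variant, was at 61.05 ± 2.82 CPM in SW948 with no read in any DLD1 sample, at least 295-fold higher, and was at 121 CPM in HT55. RTN4RL1, a Nogo receptor relative, was at 40.8 ± 2.26 CPM, at least 197-fold higher, and at most 0.0289 CPM in the 4 other lines. HAAO, an enzyme of tryptophan breakdown, was at 27.3 ± 1.697 CPM and at least 132-fold higher, and DDC, aromatic amino acid decarboxylase, was at 119 ± 5.55 against 0.0656 CPM. The co-chaperone DNAJA4 had no read in DLD1 and 28.7 ± 2.29 CPM in SW948, while RKO and SW48 were at 35.7 and 105. HKDC1, a hexokinase relative, was at 91.9 ± 4.23 against 0.0491 CPM. PYCARD, the inflammasome adaptor ASC, was at 31.3 ± 2.08 against 0.0196 CPM, and the transcription factor FOXP2 at 29.4 ± 0.612 against 0.0164. PCDHGC3 was at 23.7 ± 1.74 CPM with no DLD1 read, but shares exons with the other genes of its cluster. Together with UGT1A10, GREM1, CYP2B6, MEP1A, NR1I2 and LYZ these are the 15.

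Among the 15 lowest in SW948, ENTREP2 was at 49.3, 48.6, 54.7 and 57.3 CPM in DLD1 with no read in SW948, at least 263-fold lower, and at 8.89 ± 1.67 CPM in unsorted DLD1. HDGFL3 and MLF1 had no read in SW948 either, at 26.4 ± 1.21 and 22.7 ± 1.77 CPM in DLD1. PLS3, an actin bundler, was at 0.189, 0.224, 0 and 0.0639 CPM in SW948 and 138, 134, 139.8 and 139 CPM in DLD1 (log2 fold change -10.12 ± 0.16, adjusted p = 9.0e-17), and was at 67.4 to 115 CPM in the 4 other lines, so that SW948 was the line that lacked it. FGFR1, a receptor for the bFGF in the medium, was at 0.03197 CPM in SW948 and 63.6 ± 2.97 in DLD1. EEF1A2, an elongation factor of muscle and neurons, was at 0.167 against 158 ± 18.2 CPM, and DPYSL3, a cytoskeletal protein of growing axons, at 0.2599 against 159 ± 33.97. NLRP2, a member of the inflammasome receptor family, was at 0.117 against 79.02 ± 4.997 CPM. CXCL5, a neutrophil chemokine, was at 0.0317 against 42.1 ± 3.34 CPM, yet only 1.996 ± 0.378 in unsorted DLD1. CST7, a cystatin, and GAS7 were at 44.5 ± 12.9 and 21.6 ± 6.35 CPM in DLD1 and at 8.61 ± 0.529 and 5.89 ± 2.03 in unsorted DLD1. ZNF518B and TMEM52B were at 48.5 ± 1.44 and 91.3 ± 5.54 CPM in DLD1 and 0.0157 and 0.136 in SW948. Together with IFITM2 and ZFP57 these are the 15.

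Among long noncoding RNAs at 10 CPM or more, the 5 with the widest gaps toward SW948 were SNHG14, LINC01610 (35.4 ± 3.51 against 0.0196 CPM), FEZF1-AS1 (11.9 ± 1.99 against 0.0818), R3HDML-AS1 (11.6 ± 1.57 against 0.0854) and DDN-AS1 (10.1 ± 1.08 against 0.118). The 5 toward DLD1 were H19, DIO3OS (0.202 against 12.1 ± 1.89 CPM), HOTTIP, HOXA10-AS and LINC02086 (21.2 ± 1.03 against 182 ± 8.02 CPM). DIO3OS was at 0.266 ± 0.173 CPM in unsorted DLD1. For those named AS or OS, reads of the gene on the other strand may be included.

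Genes detected in a single line of the pair were counted with a fixed rule of at least 5 CPM in every sample of the line and at most 3 counts in every sample of the other. Of protein-coding genes, 98 were detected in SW948 only and 67 in DLD1 only. The median level in the line that had them was 13.1 and 12.3 CPM. Of the 98 SW948 genes, 37 were at 5 CPM or more in HT55, the other CCS1 line, 19 in RKO, 17 in SW48 and 9 in HCT15, and 27 were under 1 CPM in all 4. Of the 67 DLD1 genes, 43 were at 5 CPM or more in HCT15, 20 in SW48, 16 in HT55 and 11 in RKO, and 36 reached that level in unsorted DLD1. Of all 12337 protein-coding genes tested, 9975 were at 5 CPM or more in HT55, 10393 in HCT15, 9666 in RKO and 10023 in SW48. In unsorted DLD1 10208 were, and 284 were under 1 CPM in all 4 other lines. Each count at 5 CPM or more is a larger share than among the 98 or the 67.

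The LRCs of both lines, the dye-retaining cells sorted beside the non-LRCs, give these genes a second set of values. FABP1 was at 335 ± 68.2 CPM in SW948 LRCs and 0.0384 ± 0.0445 in DLD1 LRCs. GREM1 was at 131 ± 24.1 CPM in SW948 LRCs and 0.0181 ± 0.0362 in DLD1 LRCs. H19 was at 0.415 ± 0.157 CPM in SW948 LRCs and 595 ± 50.04 in DLD1 LRCs. FOXA1 was at 4.11 ± 0.8404 CPM in SW948 LRCs and 200.3 ± 38.1 in DLD1 LRCs. IFITM2 was at 0.268 ± 0.1104 CPM in SW948 LRCs and 104 ± 14.9 in DLD1 LRCs. HOXA13 was at 40.5 ± 3.28 CPM in SW948 LRCs and 156 ± 12.5 in DLD1 LRCs. Of the genes named here with an adjusted p under 0.05 in non-LRCs or in LRCs, CDX2 and no other reversed its direction in LRCs.

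**Figure D4:**
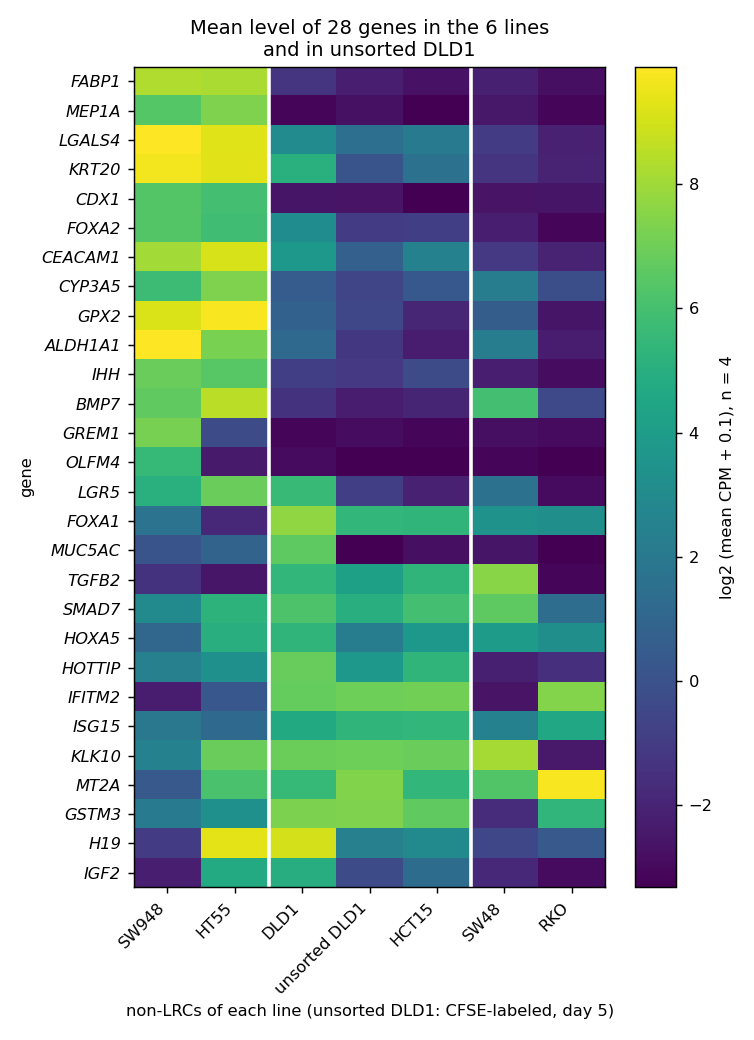
Log2 of mean CPM plus 0.1 (color, n = 4 a column) of 28 genes in the non-LRCs of SW948 and HT55 (CCS1), DLD1 (CCS3) with unsorted DLD1 and HCT15 (CCS3), and SW48 and RKO (CCS2). FABP1, MEP1A, CDX1 and IHH were high in SW948 and HT55 and low in DLD1, unsorted DLD1 and HCT15, GREM1 and OLFM4 were high in SW948 alone, and LGR5, MUC5AC, H19 and IGF2 were high in sorted DLD1 but not in unsorted DLD1 or HCT15.

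HT55 and HCT15 are the other CCS1 and CCS3 lines, and their non-LRCs share no sample with the pair described here. They are set beside it as a description, since HCT15 and DLD1 are not independent lines. Of 14293 genes tested 73.1% were called, of which 5121 (35.8%) were higher and 5328 (37.3%) lower in HT55, and with library size without TMM 3311 were higher and 7558 lower. Of 1933 genes at least 2-fold higher in SW948 that were tested in both, 1169 (60.5%) were called higher in HT55 and 398 (20.6%) lower, and of 2020 genes at least 2-fold lower in SW948, 1267 (62.7%) were called lower in HT55 and 346 (17.1%) higher. Over all 13403 genes tested in both, 35.3% were called higher and 37.2% lower in HT55. FABP1, MEP1A, KRT20 and LGALS4 were at 296 ± 70.7, 161 ± 13.7, 635 ± 128 and 599 ± 46.7 CPM in HT55 and at 0.0589, 0, 2.94 and 4.19 CPM in HCT15. GPX2 and IHH were likewise high in HT55 (872 ± 109 and 89.1 ± 19.2 CPM) and near 0 in HCT15 (0.163 and 0.753 CPM). Yet of the 26 tested genes that detoxify drugs and oxidants, 11 were higher and 13 lower in HT55. Their median log2 fold change was -0.44 there, against 1.17 between SW948 and DLD1.

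Other groups were not shared by HT55. GREM1 and OLFM4 were at 0.717 and 0.0904 CPM in HT55, AKR1B10 at 0.147, and CDKN2A at 0.769. H19 was at 653 ± 196 CPM in HT55 and 7.82 ± 2.22 in HCT15, the opposite order to SW948 and DLD1. AXIN2, ASCL2 and APCDD1 were at 738 ± 166, 188 ± 37.2 and 691 ± 40.2 CPM in HT55, far above SW948, and at 749.8 ± 109, 104 ± 39.5 and 162 ± 96.4 CPM in HCT15. MT2A and KLK10 were at 68.7 ± 23.7 and 116 ± 12.01 CPM in HT55, closer to DLD1 (47.8 and 125) than to SW948.

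Differences also depended on the chromosome, a property the choice of the pair did not use. On chromosome 13, 196 of 243 genes tested (80.7%) were higher in SW948 and 26 lower, with a median log2 fold change of 0.94, against a share of 40.3% higher and a median of -0.000323 over all genes. The median was 0.48 on chromosome 7, 0.39 on chromosome 11, 0.38 on chromosome 20 and 0.31 on chromosome 2. It was -0.55 on chromosome 4, -0.52 on chromosome 10, -0.44 on chromosome 18, -0.38 on chromosome 14 and -0.38 on chromosome 16. On chromosomes 4, 10 and 18, 64.9%, 63.5% and 64.4% of genes were lower in SW948, against 39.5% over all genes. Of 121 windows of 20 Mb with at least 40 genes that had 10 counts in every sample, the 3 with the highest medians all lay on chromosome 13 (GRCh37), at 1.10 in chr13:100000001-120000000, 0.94 in chr13:20000001-40000000 and 0.91 in chr13:40000001-60000000. The lowest was chr10:120000001-140000000 at -0.74. Between HT55 and HCT15 the median was 0.55 on chromosome 13, -0.67 on chromosome 4 and -0.74 on chromosome 18, but -0.18 on chromosome 11 and 0.003502 on chromosome 20. DNA copy number was not measured in the data used here, and its part in these medians was not tested. No test was run on the medians, as neighboring genes are not independent.

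**Figure D5:**
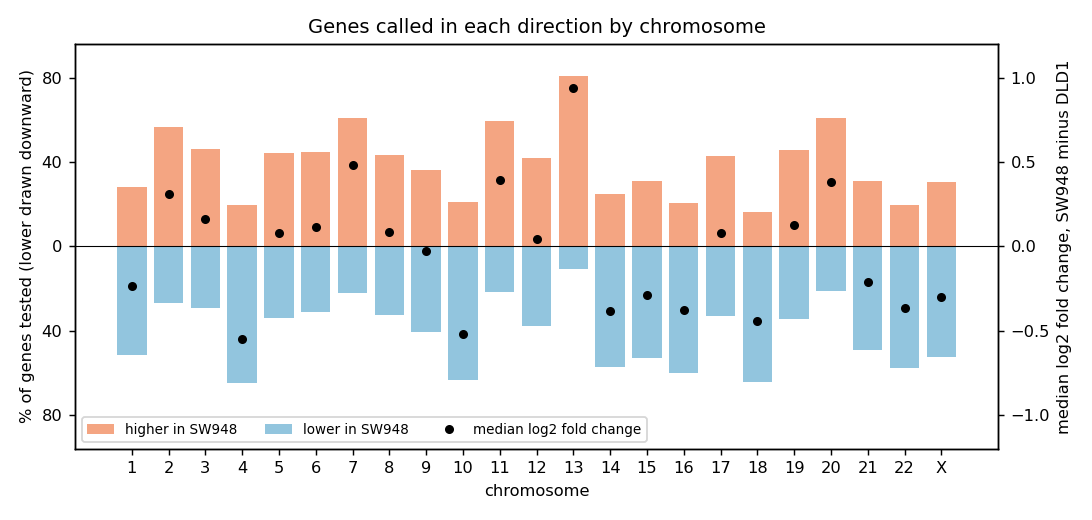
Share of genes tested on each chromosome that were higher (upward bars) or lower (downward bars, in positive %) in SW948 at an adjusted p under 0.05, with the median log2 fold change as points on the right axis. Chromosome 13 has the highest share and the highest median, and chromosomes 4, 10 and 18 have the lowest medians.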

How the data were processed

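RNA of sorted non-LRCs was extracted (RNeasy Micro), made into TruSeq libraries and sequenced as 50-bp single-end reads. The authors deposited raw read counts per gene against hg19, with TopHat, HTSeq and DESeq named in the submitters' notes without versions; whether counting used strand was not given in the sources used here. The study's methods call the replicates biological quadruplicates.

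Summary rows were left out. Symbols were matched for 47098 of 54127 genes. Testing, on genes that reached 10 counts in 4 or more of the 8 samples, was done with edgeR 4.0.16 (quasi-likelihood, TMM, R 4.3.3), unpaired, and p-values adjusted by Benjamini-Hochberg. CPM used TMM-scaled library sizes over the 8 samples, over 24 non-LRC samples for the other lines, and over a separate set of 20 for LRCs and unsorted DLD1. Log2 fold changes are SW948 minus DLD1 ± SE, which depend on the prior count for genes at 0. Intervals and floors cover counting error only. DESeq2 1.42.0 was an alternative, and the fit was tested on simulated data.

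Named genes were the 15 protein-coding genes (20 CPM or more) and 5 long noncoding RNAs (10 CPM or more) with the largest changes in each direction and no overlap of samples, and members of the lists. Members, lists and settings were chosen with earlier results of these data known. Some list members are not reported here.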

Additional observations from a re-analysis of the deposited data

Results flagged for a closer look

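Single samples that stood away from the other 3 of their line were sought in 318 sets of 4 samples of the genes named, by the gap to the nearest sample divided by the range of the 4 (Dixon's criterion). A chance rate of about 1 in 20 sets assumes normally distributed values and does not hold for sets with only a few reads. The criterion picked out 25 samples. In 12 of them the gap was the whole range (a ratio of 1), because a single sample held the few reads of a gene at 0 in the other 3: CST7 (SW948 replicate 3, 0.0639 CPM), FGFR1 (SW948 replicate 3, 0.128 CPM), FOXP2 (DLD1 replicate 3, 0.0655 CPM), GREM1 (DLD1 replicate 3, 0.0655 CPM), IFIT1 (SW948 replicate 3, 0.0639 CPM), LINC01610 (DLD1 replicate 4, 0.0786 CPM), MEP1A (DLD1 replicate 2, 0.0654 CPM), NR1I2 (DLD1 replicate 4, 0.0786 CPM), OLFM4 (DLD1 replicate 1, 0.132 CPM), PTPRC (DLD1 replicate 2, 0.0654 CPM), PYCARD (DLD1 replicate 4, 0.0786 CPM) and ZNF518B (SW948 replicate 1, 0.0629 CPM).

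The ratio for the others is given after the level. Among them were ESRP1 in SW948 replicate 3 (highest, 258 CPM, 0.908), FABP1 in DLD1 replicate 4 (highest, 0.786 CPM, 0.897), FOXA2 in DLD1 replicate 2 (highest, 12.7 CPM, 0.894) and GLI2 in SW948 replicate 4 (lowest, 0 CPM, 0.842). There were also HOXA5 in SW948 replicate 4 (highest, 2.68 CPM, 0.927), HOXB5 in DLD1 replicate 3 (highest, 39.7 CPM, 0.894), IFIT3 in SW948 replicate 2 (lowest, 0 CPM, 0.984) and IFITM2 in SW948 replicate 2 (lowest, 0.0748 CPM, 0.962). The last were MEP1A in SW948 replicate 1 (highest, 94.5 CPM, 0.898), PHGR1 in SW948 replicate 3 (lowest, 52.3 CPM, 0.867), SGCE in SW948 replicate 2 (lowest, 7.48 CPM, 0.833), SMAD7 in SW948 replicate 3 (highest, 8.06 CPM, 0.873) and TMEM52B in DLD1 replicate 1 (highest, 99.6 CPM, 0.903). None of these samples lay within the range of the other line's samples for its gene.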

How the results depend on the processing

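The number of genes higher in SW948 was 5486 to 5624 and lower 5383 to 5532 when single samples were left out, and DESeq2 called 5563 higher and 5428 lower. Requiring at least a 2-fold difference gave 2298 and 2146, and 1429 and 1367 with at least 10 counts in every sample, a filter that removes genes near 0 in a line. That filter also left 6 colonocyte genes higher, 11 interferon genes lower, 2 TGFβ and BMP genes higher and 5 Wnt and crypt genes higher, and gave medians of 0.46 on chromosome 7, -0.41 on chromosome 14 and -0.35 on chromosome X. Without TMM, 3311 genes were higher in HT55 than in HCT15. The correlation of SW948 with DLD1 was 0.842 with a prior count of 0.5, 0.352 over the 1000 most variable genes and 0.888 by Spearman. Samples with the same replicate number did not deviate together (r of -0.0205, -0.0491, 0.0273 and 0.000514), so the numbers do not pair the samples. With the replicate block, 5586 genes were higher and 5484 lower, and it changed no call among the 163 genes named.

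For single named genes, direction was compared only where either fit passed the threshold. By this rule, 2685 of 2704 results under settings that kept the sorted non-LRCs kept their direction and side of the threshold. With a sample left out, 1299 of 1304 did. The other 5 were those of CA2, whose call was lost without SW948 replicate 1 or 4 or DLD1 replicate 1, 3 or 4 (adjusted p of 0.076 to 0.24). PHLDA2 reversed to 0.23 with DLD1 replicates 3 and 4 alone, and CDX2 to -0.055 in LRCs, and the cause was not tested.

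Most changes came with unsorted day 5 DLD1 in place of sorted DLD1. With CFSE-labeled controls, 2 colonocyte genes, 2 intestinal transcription factors and 4 tight junction genes were lower in SW948, and 4 HOX genes and 9 TGFβ and BMP genes were higher. With unlabeled controls, chosen after seeing the data, 2 intestinal transcription factors and 4 tight junction genes were lower and 3 HOX genes higher. Over all genes tested, 5513 were higher and 5509 lower in SW948 with CFSE-labeled controls, and 4988 and 5230 with unlabeled controls. The median of the Wnt and crypt list reversed to 0.52 and 0.43. By the same rule on direction, the log2 fold change of 16 named genes reversed with CFSE-labeled controls: AGR2 (3.67), BMP2 (4.75), CA2 (-1.02), CLDN2 (-0.11), ERBB3 (1.60), GATA6 (1.02), HOXA10 (0.50), HOXA13 (0.95), HOXA3 (2.51), IRF9 (0.29), ISX (7.12), L3MBTL1 (0.95), LGR5 (6.25), MUC5AC (6.98), NQO1 (-1.90) and PTCH1 (0.28). With unlabeled controls 14 did: AGR2 (3.53), BMP2 (4.91), CA2 (-0.15), CDX2 (-0.17), ERBB3 (1.04), GATA6 (0.82), HOXA3 (1.81), HOXB4 (-1.17), HOXB5 (-0.96), ISX (7.04), LGR5 (6.32), MUC5AC (5.37), NQO1 (-1.40) and SHH (-0.043). These replace the samples rather than the processing. These controls are labelled day 5, whereas the study's methods name day 6 for them, the day on which the sorted samples were taken. Which is right is not known. Sorting, the day of culture and the identity of the cells cannot be told apart. CFSE labeling was shared by the sorted samples and the CFSE-labeled controls. At these depths 3 counts correspond to 0.199 CPM in SW948 and 0.207 CPM in DLD1, which limits what is seen of a gene near 0.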
